A study of Mus musculus with 24 samples.

Results

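The mature miRNAs mmu-miR-451a, mmu-miR-144-3p, mmu-miR-144-5p and mmu-miR-486a-5p, known for their abundance in red blood cells, did not move together through the mammary gland cycle of mice. miR-144-3p was highest at day 7 of lactation, 2.74-fold above late pregnancy and 3.91-fold above early involution. miR-144-5p, cut from the opposite arm of the same hairpin, passed no test between stages. miR-451a, made from the neighbouring hairpin, fell 2.10-fold between the adult gland and late pregnancy. miR-486a-5p fell 4.18-fold over the same interval and was higher again at involution. These 4 miRNAs, chosen by name, are all listed among the 1009 miRNAs of the deposited table.

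Small RNA was taken from homogenised abdominal with inguinal glands of 24 C57BL/6 females, inbred mice that carried no transgene and received no treatment. There were 6 mice a stage, with 1 library each, and the stages were W10 (adults aged 10 weeks), P18 (gestation day 18), Lac7 (lactation day 7) and Inv3 (involution day 3, in the regressing gland). These days are those of the labels and the paper, and the series' design text exchanges the last pair (lactation day 3, involution day 7). The mice were killed with CO2 followed by cardiac puncture, and whether blood was flushed from the glands is not given in the sources used here.

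A miRNA is cut from a hairpin in a longer transcript, and either arm of the hairpin can become the mature strand that guides the silencing of messenger RNAs. miR-144 and miR-451a are made from a single transcript that the erythroid factor GATA1 switches on, and miR-451a is known for being cut by Argonaute 2 without Dicer. miR-451a is among the most abundant miRNAs of red blood cells, where it dampens cytokine signalling, and miR-144 limits the antioxidant factor NRF2. miR-486 lies in Ank1, the gene of the red cell membrane protein ankyrin, and is known both in red blood cells and in skeletal muscle. In a tissue homogenate these miRNAs are often read as blood left in the vessels. The amount of blood in the glands was not measured here, and in bulk tissue fewer cells of a type and less RNA per cell cannot be told apart.

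The mature sequences, 5′ to 3′ as given by RefSeq for GRCm38.p6, carry their seed (bases 2 to 8, which pair with target messenger RNAs) in capitals. They are shown because the 3 seeds of the cluster of miR-144 and miR-451a differ, so that a change of arm is a change of targets.
miR-451a: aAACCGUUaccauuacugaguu
miR-144-3p: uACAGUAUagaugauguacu
miR-144-5p: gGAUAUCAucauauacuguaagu
Among the listed miRNAs with a RefSeq sequence, 1 other matches a member over bases 2 to 7, namely miR-101a-3p, which begins like miR-144-3p. For miR-486a-5p the source held no sequence, so it was not compared.
miR-101a-3p: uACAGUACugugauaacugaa

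The hairpins show where each product is cut, with the mature strands in capitals. Mir144 lies at chr11:78073005-78073070 and Mir451a at chr11:78073170-78073241 (GRCm38, plus strand), with 99 bases between them.
Mir144: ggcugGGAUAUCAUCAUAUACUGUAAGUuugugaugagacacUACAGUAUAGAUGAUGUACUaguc
Mir451a: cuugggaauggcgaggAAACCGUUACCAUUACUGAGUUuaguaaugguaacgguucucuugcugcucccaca
In the Mir144 hairpin, miR-144-5p takes bases 6 to 28 and miR-144-3p bases 43 to 62. Both arms are of low and similar base composition, with 30.4% G and C in miR-144-5p and 30.0% in miR-144-3p, against 36.4% in miR-451a. The cluster lies between genes, with 134 bases from the end of Mir451a to Eral1. Mir451b is annotated on the opposite strand over the same bases as Mir451a. Mir486 lies on chromosome 8 (23142555 to 23142682, GRCm38) within an intron of Ank1, and Mir3107 is annotated on the opposite strand inside its span, so that products of the overlapping copies cannot be told apart here.

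Levels are in RPM, reads scaled so that the listed miRNAs of each library sum to 1000000, so a value also depends on how many reads other miRNAs take. Libraries held 660346 to 1165321 reads, with the lowest median at Lac7 (693166). All 4 miRNAs had reads in each of the 24 libraries: 256 to 1637 reads for miR-451a, 44 to 268 for miR-144-3p, 18 to 80 for miR-144-5p and 6 to 83 for miR-486a-5p. By mean level they ranked 75, 135, 203 and 222 of 1009. Their joint median share of the reads was 0.121% (W10), 0.0531% (P18), 0.0995% (Lac7) and 0.0867% (Inv3). As a check of the tissue, the summed level of 5 epithelial miRNAs (the miR-200 family) ranged from 14825 to 20697 RPM at W10 and from 113670 to 133068 RPM at Lac7. The libraries of Lac7 mice 4 and 5 stood apart from the other Lac7 libraries, with 12161 and 12133 RPM of 5 leukocyte miRNAs against 3993 to 4834 RPM in the other 4. They also held less of the skeletal muscle miRNAs, with sums of 104 and 117 RPM against 2276 to 5001 RPM in the other 4.

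Stages were compared with limma on log2(RPM + 1) in a single fit of the 24 libraries, with adjustment over 544 miRNAs, and a miRNA passed with an adjusted p under 0.05. Folds are ratios of mean RPM. The median log2 change of all 544 miRNAs was -0.32 in P18 against W10, -0.34 in Lac7 against P18 and 0.28 in Inv3 against Lac7. Scaling by DESeq2 size factors, which are set by the typical miRNA instead of the total, moved these medians to -0.08, -0.13 and 0.17. It also moved the share of passing miRNAs that were higher, from 29.2% to 43.7% in P18 against W10, from 30.5% to 44.1% in Lac7 against P18 and from 59.6% to 50.8% in Inv3 against Lac7. For the comparisons across the cycle the medians moved from -0.66 to -0.28 (Lac7 against W10) and from -0.41 to -0.09 (Inv3 against W10), with higher shares moving from 27.3% to 39.6% and from 20.2% to 43.4%. In Inv3 against P18 the median was -0.11 and the higher share 38.1%, and these moved to -0.02 and 47.2% with size factors, while the higher share was 49.6% with edgeR and 51.4% with DESeq2.

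**Figure D1:**
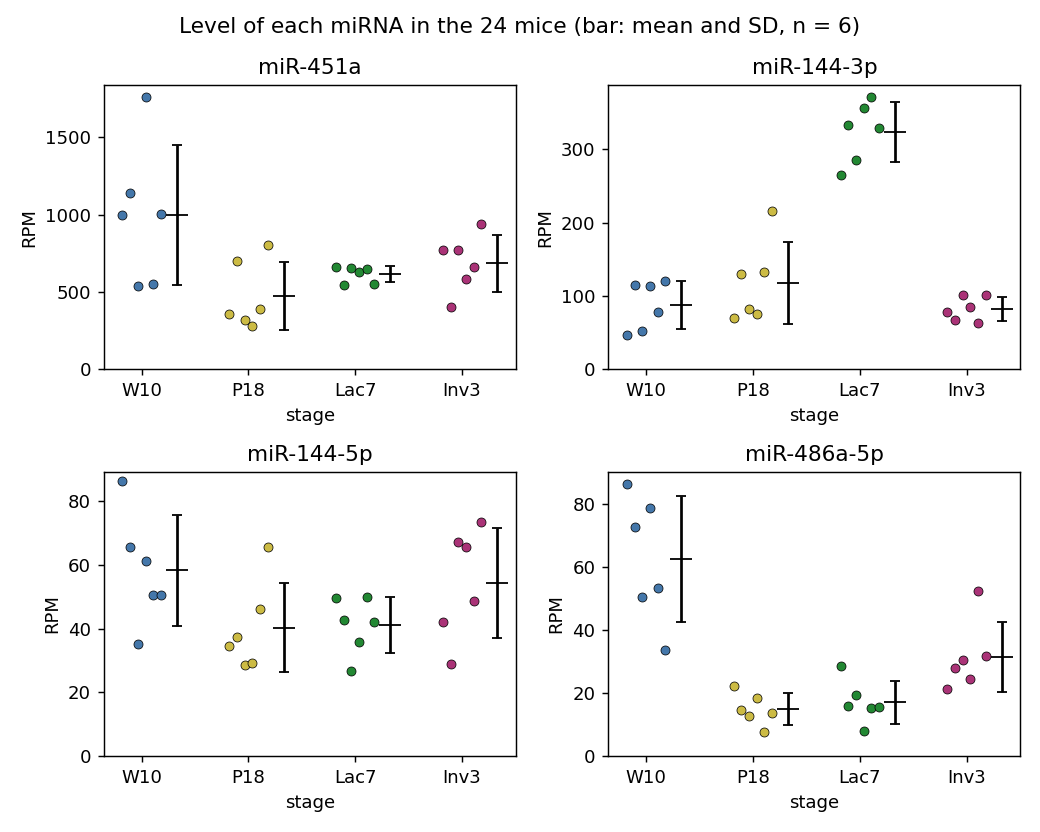
RPM of each miRNA (vertical axis, linear from 0) in every mouse by stage, with the mean and SD of 6 mice as a bar beside the points. miR-144-3p at Lac7 (264 to 371 RPM) lies above every mouse of the other stages, whereas miR-144-5p overlaps between all stages and miR-486a-5p is highest at W10.

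miR-451a was the most abundant of the 4 on the RPM scale at every stage, and it fell between W10 and P18. At W10 its lowest, median and highest mice had 539.9, 1001 and 1761 RPM, and at P18 they had 278, 374 and 806 RPM. At Lac7 the values were 543, 641 and 659 RPM, and at Inv3 they were 402, 714 and 939 RPM. Mice of any pair of stages overlapped, and W10 had the widest range.

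The means were 998 ± 450 RPM (W10), 475 ± 221 (P18), 615 ± 53.6 (Lac7) and 687 ± 184 (Inv3), each ± SD of n = 6. Between P18 and W10 the log2 change was -1.07 ± 0.26 (SE), with a limma adjusted p of 0.0015, where 41.5% of all tested miRNAs passed, 29.4% as lower and 12.1% as higher. It remained past the threshold with the size factors (-0.82), edgeR (-0.77) and DESeq2 (-0.83). The order of the means was W10, Inv3, Lac7 and P18, and no neighbours in this order differed past the threshold by limma, with adjusted p of 0.16, 0.72 and 0.13.

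The rise of miR-451a after pregnancy depended on the scaling. From P18 to Lac7 its log2 change was 0.49 ± 0.26 on RPM (limma, adjusted p = 0.13), 0.79 with size factors (limma, adjusted p = 0.011) and 0.70 with DESeq2 (adjusted p = 0.019). Between P18 and Inv3 it was 0.60 on RPM (limma, adjusted p = 0.093), 0.73 with size factors, 0.66 with edgeR and 0.68 with DESeq2, and these 3 passed. Lac7 against W10 gave -0.58 on RPM (limma, adjusted p = 0.054) but -0.02 with size factors, so a difference between these stages was not shown. The spread between mice also varied by stage, with a coefficient of variation of 45.1% (W10), 46.6% (P18), 8.71% (Lac7) and 26.8% (Inv3).

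miR-144-3p, the strand whose seed matches the bases 2 to 7 of miR-101a-3p, was highest in lactation. At W10 its lowest, median and highest mice had 47.45, 95.8 and 120.3 RPM, and at P18 they had 70.3, 106 and 216 RPM. At Lac7 they had 264, 331 and 371 RPM, and at Inv3 62.9, 81.5 and 101 RPM. The lowest Lac7 mouse was above the highest mouse of the 18 others.

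The means were 87.8 ± 32.7 RPM (W10), 118 ± 55.6 (P18), 323 ± 41.2 (Lac7) and 82.6 ± 16.2 (Inv3), each ± SD of n = 6. Lac7 was above P18 by 1.56 ± 0.25 on the log2 scale (limma, adjusted p = 1.1e-05), a comparison in which 45.2% of tested miRNAs passed, 13.8% as higher and 31.4% as lower, and 29.0% had groups without overlap. From Lac7 to Inv3 it fell by 1.97 on the log2 scale (limma, adjusted p = 3.1e-07), where 46.9% passed, 18.9% as lower and 27.9% as higher, and 24.8% had no overlap. Lac7 also exceeded W10 by 1.95 on this scale (3.68-fold, limma adjusted p = 1.3e-07), where 66.7% passed, 18.2% as higher and 48.5% as lower, and 41.7% had no overlap. These 3 differences passed with every scaling and count model and with each mouse left out in turn. Without Lac7 mice 4 and 5 they were 1.47, -1.88 and 1.86, and passed as well.

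Outside lactation miR-144-3p did not differ past the threshold on RPM. P18 exceeded W10 by 0.40 ± 0.25 on the log2 scale (limma, adjusted p = 0.21), and this passed at 0.64 with size factors, 0.72 with edgeR and 0.67 with DESeq2. Inv3 against W10 gave -0.02 on RPM (limma, adjusted p = 0.98) and 0.36 with size factors, both short of the threshold. The order of the means was Lac7, P18, W10 and Inv3, and among neighbours only Lac7 and P18 differed past the threshold.

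miR-144-5p, the opposite arm, showed no difference between stages that passed. At W10 its lowest, median and highest mice had 35.1, 56.0 and 86.3 RPM, and at P18 28.8, 36.0 and 65.5 RPM. At Lac7 they had 26.7, 42.5 and 50.0 RPM, and at Inv3 28.8, 57.1 and 73.4 RPM. All stages overlapped, and the lowest of the 24 mice was at Lac7 and the highest at W10.

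The means were 58.3 ± 17.3 RPM (W10), 40.3 ± 13.9 (P18), 41.2 ± 8.81 (Lac7) and 54.3 ± 17.3 (Inv3), each ± SD of n = 6. Its largest change on RPM was -0.53 ± 0.25 (log2) between W10 and P18, with a limma adjusted p of 0.088. Lac7 against P18 gave 0.06 ± 0.25 (limma, adjusted p = 0.87) and Inv3 against Lac7 gave 0.35 ± 0.25 (limma, adjusted p = 0.25). None of its 6 comparisons passed with the size factors, edgeR or DESeq2 either.

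miR-486a-5p, the product of the Ank1 intron, was highest in the adult gland. At W10 its lowest, median and highest mice had 33.8, 63.0 and 86.3 RPM, and at P18 7.72, 14.1 and 22.4 RPM. At Lac7 they had 7.98, 15.8 and 28.5 RPM, and at Inv3 21.45, 29.3 and 52.4 RPM. The W10 mice lay above all P18 and Lac7 mice, and the Inv3 mice overlapped with each other stage.

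The means were 62.5 ± 19.9 RPM (W10), 14.9 ± 5.03 (P18), 17.1 ± 6.72 (Lac7) and 31.5 ± 10.9 (Inv3), each ± SD of n = 6. From W10 to P18 miR-486a-5p fell by 1.99 on the log2 scale (SE 0.29, limma adjusted p = 1.8e-06), where 26.7% of tested miRNAs had groups without overlap. Lac7 was lower than W10 as well, by 3.66-fold (log2 change -1.83, limma adjusted p = 2.8e-06). At Inv3 it was 1.84-fold above Lac7 (log2 change 0.87, limma adjusted p = 0.013) and 2.11-fold above P18 (1.03, limma adjusted p = 0.0077), the second in a comparison where 28.5% passed, 10.8% as higher and 17.6% as lower, and 12.5% had no overlap.

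On RPM the order of its means was W10, Inv3, Lac7 and P18, as for miR-451a and miR-144-5p. With size factors this order held for miR-486a-5p and not for miR-451a or miR-144-5p. For miR-486a-5p, of the neighbours in this order Lac7 and P18 alone did not differ past the threshold on RPM. Inv3 remained below W10 on RPM (log2 change -0.96, limma adjusted p = 0.0082, where 39.2% passed, 31.2% as lower and 7.9% as higher, and 15.1% had no overlap). With size factors this became -0.59 (limma, adjusted p = 0.14), and edgeR (-0.57) and DESeq2 (-0.60) also left it short of the threshold. Without Lac7 mice 4 and 5 the difference between Inv3 and Lac7 was 0.62 (limma, adjusted p = 0.099).

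miR-486a-3p, the opposite arm of the same hairpin, is the single other product of these loci that is listed. It had medians of 56.1, 12.8, 8.29 and 29.8 RPM at W10, P18, Lac7 and Inv3. It fell between W10 and P18 (log2 change -1.96, limma adjusted p = 1.3e-07) and rose between Lac7 and Inv3 (1.66, limma adjusted p = 1.2e-06). Each time the mice of the groups did not overlap, as for 26.7% and 24.8% of all tested miRNAs. Both arms of miR-486a thus changed in the same direction in these intervals, whereas from Lac7 to Inv3 miR-144-3p fell and miR-144-5p did not pass. From P18 to Lac7 neither arm of miR-486a passed, with log2 changes of 0.16 (miR-486a-5p) and -0.47 (miR-486a-3p). miR-451b and the products of miR-486b are not among the listed miRNAs.

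**Figure D2:**
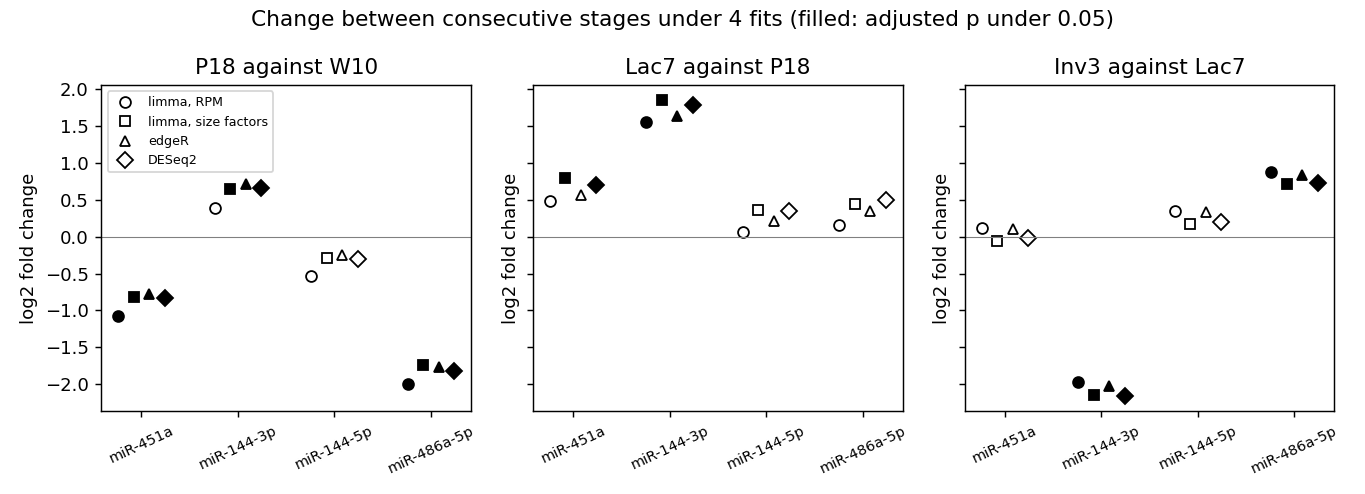
Log2 fold change of each miRNA (vertical axis) between consecutive stages under limma on RPM, limma on values scaled by size factors, edgeR and DESeq2, with filled symbols for an adjusted p under 0.05. miR-144-3p rises into lactation (1.56 to 1.86) and falls after it (-1.97 to -2.16) under all 4, whereas the change of miR-451a from P18 to Lac7 passes under size factors and DESeq2 and not under the other fits.

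Ratios within a library do not depend on the total, and they set the members of the cluster against each other. The ratio of miR-144-3p to miR-451a had a median of 0.0990 (W10), 0.264 (P18), 0.568 (Lac7) and 0.119 (Inv3). On the log2 scale the means were -3.46 ± 0.59, -1.999 ± 0.33, -0.93 ± 0.26 and -3.02 ± 0.32 (SD, n = 6). Consecutive stages did not overlap in any mouse.

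The log2 ratio rose by 1.47 from W10 to P18, rose by a further 1.07 from P18 to Lac7 and fell by 2.08 from Lac7 to Inv3. Each of these differences had an exact permutation p of 0.0022, the smallest that 6 mice against 6 can give (two-sided, adjusted p = 0.0049 over 18 tests). Inv3 and W10 overlapped, with a difference of 0.45 (exact permutation p = 0.14). The ratio thus separated W10 and P18 mice completely, although miR-144-3p alone did not pass between them on RPM and miR-451a overlapped. Of all tested single miRNAs, 26.7% had no overlap between these stages, and the share among ratios of other pairs was not computed.

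**Figure D3:**
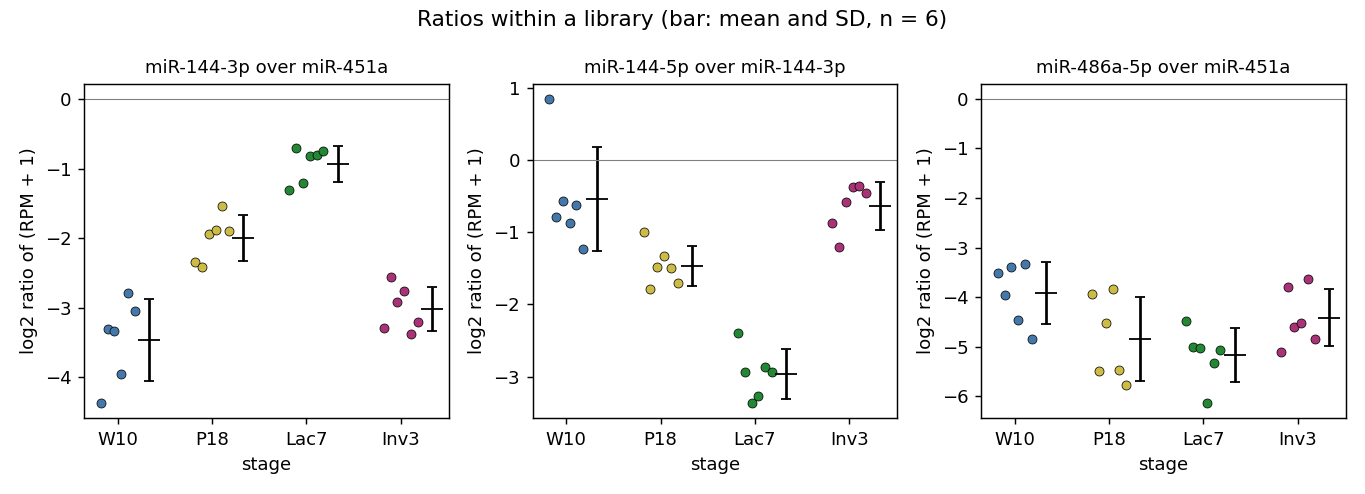
Log2 ratio of a pair of miRNAs within each library (vertical axis, on RPM + 1) in every mouse by stage, with mean and SD of 6 mice beside the points. miR-144-3p over miR-451a climbs from W10 to Lac7 and drops at Inv3, miR-144-5p over miR-144-3p is lowest at Lac7, and miR-486a-5p over miR-451a overlaps between all stages.

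The arms of the miR-144 hairpin shifted in their proportion. Of the reads on the hairpin, miR-144-3p took 59.2 ± 12.2% (W10), 73.6 ± 3.86% (P18), 88.6 ± 2.55% (Lac7) and 61.0 ± 5.49% (Inv3), each ± SD of n = 6. The lowest Lac7 mouse stood at 84.2%, above the highest mouse of P18 (77.8%), W10 (70.3%) and Inv3 (70.1%). These shares rest on 80 to 206 hairpin reads a mouse (W10), 96 to 245 (P18), 209 to 295 (Lac7) and 107 to 170 (Inv3).

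The log2 ratio of miR-144-5p to miR-144-3p was -0.54 ± 0.72 (W10), -1.47 ± 0.28 (P18), -2.96 ± 0.35 (Lac7) and -0.64 ± 0.33 (Inv3), each ± SD of n = 6. It fell by 1.496 from P18 to Lac7 and rose by 2.32 from there to Inv3, without overlap in either case (exact permutation p = 0.0022 for both). W10 to P18 brought a fall of 0.93 (exact permutation p = 0.0043, adjusted p = 0.0071), with mice that overlapped. W10 and Inv3 did not differ past the threshold (-0.10, exact permutation p = 0.84).

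Shifts between arms were common among the 82 hairpins with both arms listed at 10 RPM or more. By limma on the ratio of the arms, 36.6% of them passed in P18 against W10, 24.4% in Lac7 against P18 and 47.6% in Inv3 against Lac7. Across the cycle 50.0% passed in Lac7 against W10, 28.0% in Inv3 against P18 and 4.88% in Inv3 against W10. miR-144 ranked 3 of 82 by size of the shift in both intervals around lactation (limma adjusted p = 8.7e-05 and 2.3e-07). The median absolute shift of the 82 was 0.48 in the first of these intervals and 0.69 in the second.

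The ratio of miR-486a-5p to miR-451a changed less. Its log2 means were -3.92 (W10), -4.84 (P18), -5.17 (Lac7) and -4.41 (Inv3). The difference between Lac7 and W10 alone passed (-1.25, exact permutation p = 0.0043, adjusted p = 0.0071), and the mice overlapped in each of the 6 comparisons. Between P18 and W10 the difference was -0.92 (exact permutation p = 0.063, adjusted p = 0.087).

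Between mice of the same stage, miR-451a moved with miR-144. After subtracting the stage means on the log2 scale, Pearson's r of miR-451a with miR-144-5p was 0.62 over 24 mice (permutation p = 0.0037, adjusted p = 0.027 over 8 relations) and Spearman's rho 0.55 (permutation p = 0.011, adjusted p = 0.032). With miR-144-3p, r was 0.67 (permutation p = 0.0067, adjusted p = 0.027) and rho 0.67 (permutation p = 0.0051, adjusted p = 0.032). Leaving out the 2 mice farthest from the median of miR-451a gave r of 0.61 in both cases, and the relation with miR-144-3p then missed the threshold (permutation p = 0.024, adjusted p = 0.064).

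Within stages the lowest values were those of Lac7, although the difference between stages was not tested. The r of miR-451a with miR-144-5p was 0.61 (W10), 0.77 (P18), -0.15 (Lac7) and 0.75 (Inv3), and with miR-144-3p it was 0.56, 0.87, -0.30 and 0.65 (n = 6 each, no test). Lac7 was also the stage with the smallest spread of miR-451a. The arms of miR-144 gave an r of 0.48 (permutation p = 0.028, adjusted p = 0.056) and a rho of 0.49 (permutation p = 0.024, adjusted p = 0.048), and r was 0.65 without the 2 farthest mice.

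miR-486a-5p did not show this relation with miR-451a, at r = 0.13 (permutation p = 0.58, adjusted p = 0.59) and rho = 0.26 (permutation p = 0.25, adjusted p = 0.39). It moved instead with the summed level of the skeletal muscle miRNAs miR-1a-3p, miR-133a-3p, miR-133b-3p and miR-206-3p. Here r was 0.54 (permutation p = 0.014, adjusted p = 0.037) and rho 0.53 (permutation p = 0.012, adjusted p = 0.032). Without the 2 farthest mice r was 0.41 and no longer passed (permutation p = 0.095, adjusted p = 0.19). Within stages r was 0.69 (W10), -0.02 (P18), 0.78 (Lac7) and 0.84 (Inv3) (n = 6 each, no test). At Lac7 the muscle sums of mice 4 and 5 lay far below those of the other mice. At Inv3, mouse 5 had both the highest miR-486a-5p (52.4 RPM) and the highest muscle sum (946.7 RPM) of its stage. The next highest values there were 31.85 and 330.3 RPM, so the r of Inv3 leans on 1 mouse. It was not computed without that mouse.

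**Figure D4:**
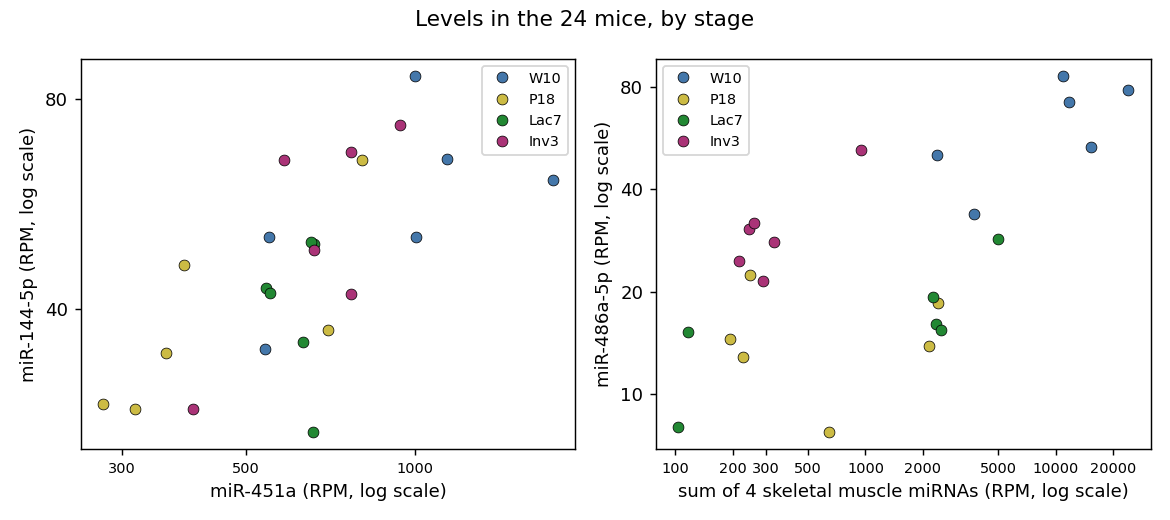
Levels in the 24 mice on log axes in RPM, coloured by stage: miR-144-5p against miR-451a on the left, and miR-486a-5p against the summed level of 4 skeletal muscle miRNAs on the right. On the left the mice rise together across stages, and on the right 4 W10 mice lie above all other mice on both axes, and the other W10 mice lie among the rest.

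Muscle miRNAs differed between the stages as well. Their sum had a median of 11360 RPM in W10 mice (2378 to 24031), 444 in P18 mice (194 to 2420), 2312 in Lac7 mice (104 to 5001) and 274 in Inv3 mice (215 to 947), and miR-133a-3p, the most abundant of them, was at 87.8 RPM or more in every library. By limma 3 of the 4 fell from W10 to P18 and 0 rose, beside 29.4% lower among all tested miRNAs. None of the 4 rose from Lac7 to Inv3, where 2 fell (4 with edgeR and 3 with DESeq2), beside 18.9% lower among all, and miR-486a-5p rose. The part of muscle in the level of miR-486a-5p was not tested. miR-451a did not move with the muscle sum between mice (r = 0.11, permutation p = 0.59).

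Other miRNAs that are abundant in red blood cells took another course from miR-144-3p. miR-16-5p, miR-92a-3p, miR-25-3p and miR-363-3p are also made by many other cells. From P18 to Lac7 all 4 fell by limma, where 31.4% of all tested miRNAs were lower, with a median log2 change of -1.60 against -0.34 among all. All 4 rose from Lac7 to Inv3, where 27.9% of all were higher (median 0.85 against 0.28), and 3 rose with the size factors, edgeR and DESeq2.

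miR-92a-3p, a member of the miR-17-92 cluster, fell from 593 ± 167 RPM at P18 to 127 ± 23.6 at Lac7 (SD, n = 6, limma adjusted p = 2.6e-08). miR-16-5p, an abundant regulator of the cell cycle, fell from 104628 ± 7722 RPM to 63494 ± 3461 (SD, n = 6, limma adjusted p = 1.6e-07). From W10 to P18, 1 of the 4 rose (miR-25-3p) and 2 fell (miR-92a-3p and miR-363-3p), beside 12.1% higher and 29.4% lower among all tested miRNAs. With each of the other 3 fits 1 rose and 1 fell.

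The marker lists of other cells also differed between stages. The 5 leukocyte miRNAs all fell from W10 to P18 by limma (4 with edgeR), where 29.4% of all tested miRNAs were lower and 12.1% higher, and their summed medians were 45050, 19403, 4810 and 17217 RPM at W10, P18, Lac7 and Inv3. Those of 3 fibroblast miRNAs were 85635, 54260, 22491 and 50288 RPM, and by limma all 3 fell from W10 to P18 and from P18 to Lac7 and all 3 rose from Lac7 to Inv3 (beside 31.4% lower and 27.9% higher among all in the latter intervals). Those of 2 endothelial miRNAs (miR-126a-3p and miR-126a-5p) were 15626, 15672, 18470 and 16190 RPM. Between mice of a stage, miR-451a had an r of 0.28 with the leukocyte sum (permutation p = 0.18, adjusted p = 0.28) and of 0.24 with the endothelial sum (permutation p = 0.22, adjusted p = 0.30). The endothelial sum is mostly miR-126a-3p, at a mean of 15509 RPM at W10 against 307 RPM for miR-126a-5p. After subtracting stage means, miR-126a-5p alone had an r of 0.73 with miR-451a, given as a description. The part of the listed cells in the levels of the red blood cell miRNAs was not tested.

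The miRNAs most like miR-451a over the 24 libraries, among 186 at 100 RPM or more at a stage, were miR-362-3p (r = 0.85), miR-126b-3p (0.83), miR-126a-5p (0.82), miR-140-5p (0.76) and miR-22-3p (0.74), given as a description. After subtracting stage means, miR-362-3p (0.76), miR-126a-5p (0.73) and miR-126b-3p (0.71) still led, followed by miR-300-3p (0.68) and miR-19b-3p (0.67). miR-126 is a well-known endothelial miRNA, and miR-126b is annotated on the opposite strand of miR-126a. Like miR-451a, miR-126a-5p fell from W10 to P18 (307 ± 56.0 to 190 ± 54.2 RPM, SD, n = 6, limma adjusted p = 6.0e-04), whereas the abundant arm miR-126a-3p did not pass on RPM (log2 change -0.01, limma adjusted p = 0.95) and passed as higher with edgeR and DESeq2.

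miR-101a-3p, which carries the same bases 2 to 7 as miR-144-3p, stood at 7733 ± 1165 RPM at P18 and 12536 ± 1397 at Lac7 (SD, n = 6). It rose by 0.70 on the log2 scale (limma, adjusted p = 2.4e-04) and fell by 0.51 from Lac7 to Inv3 (limma, adjusted p = 0.0054). On the RPM scale miR-144-3p, at 323 RPM in lactation, was the minor carrier of these bases.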

How the data were processed

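Glands were flash-frozen, RNA was extracted with mirVana and libraries were prepared by the QIAseq miRNA protocol. The authors trimmed the reads (the submitters' notes name Trimmomatic 0.36 and cutadapt) and assigned them with QuickMIRSeq and miRBase. The deposited values are RPM per library, scaled by the authors to the reads on listed miRNAs. They are multiples of a step, from which reads were recovered. Of the low values, 100% came out whole within 0.1 reads, and the recovered reads gave back 100% of all values. The step of W10 mouse 7 is close to 1 RPM, where the check for whole reads is not informative. Whether molecular identifiers were counted is not given in the sources used here. A count of 0 allows up to 3 reads, or 2.57 to 4.54 RPM, for counting error only.

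limma 3.58.1 (R 4.3.3, eBayes with a trend) was fitted on log2(RPM + 1), a scale that understates changes of low miRNAs, for the 544 miRNAs whose mean reached 1 RPM in any stage. Adjustment was by Benjamini-Hochberg. Ratios were tested by two-sided exact permutation, and correlations with 100000 permutations within stages (scipy 1.17.1). The alternatives tried were a pseudocount of 0.1 or 10, a filter of 0 or 100 RPM, size factors, edgeR 4.0.16 and DESeq2 1.42.0 on recovered reads, 12 libraries only, a replicate block and each mouse left out. The named miRNAs were the members, the other products of their loci, the marker lists, miRNAs sharing a seed and the 5 most like miR-451a in each sense. Members and lists were chosen with earlier results of these data known. No library was a duplicate (chi-square of at least 9.63 per degree of freedom in 60 pairs of a stage). The fits were tested on simulated data.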

Additional observations from a re-analysis of the deposited data

Results flagged for a closer look

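Within each stage, the highest and lowest mouse of every level and ratio was compared with the nearest other mouse by Dixon's test, in 28 groups of 6, and chance alone marks about 1 in 20 groups. In 2 groups a mouse stood apart. miR-486a-5p in Inv3 mouse 5 was 52.4 RPM, with a gap of 0.664 of the group's range to the next mouse, and this library also had the highest muscle sum of its stage (946.7 RPM). The log2 ratio of miR-144-5p to miR-144-3p in W10 mouse 1 was 0.85 (gap 0.683), from 86.3 RPM of miR-144-5p and 47.45 RPM of miR-144-3p, and it was the only one of the 24 mice with more of the 5p arm than of the 3p arm. Both mice are kept in the values of the report.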

How the results depend on the processing

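Apart from mice left out, 288 alternative values were computed, of which 257 kept their direction and side of the threshold. All values here are log2 changes unless named otherwise, and the cause of a change was not tested. With size factors, miR-451a gave 0.79 (Lac7 against P18) and 0.73 (Inv3 against P18), which then passed, and -0.061 (Inv3 against Lac7), which turned. miR-144-3p gave 0.64 (P18 against W10), now past, and 0.36 (Inv3 against W10), turned. miR-144-5p turned to 0.075 (Lac7 against W10) and 0.25 (Inv3 against W10), and miR-486a-5p weakened to -0.59 (Inv3 against W10). In the same order, edgeR gave miR-451a 0.66 (Inv3 against P18), miR-144-3p 0.72 and 0.33, miR-144-5p 0.29 (Inv3 against W10) and miR-486a-5p -0.57. DESeq2 gave miR-451a 0.70, 0.68 and -0.018, miR-144-3p 0.67 and 0.29, miR-144-5p 0.054 and 0.26, and miR-486a-5p -0.60. On the recovered reads edgeR passed 214, 247 and 250 miRNAs in the comparisons of consecutive stages, against 226, 246 and 255 by limma on RPM. A fit of the 12 libraries alone let miR-451a pass in Lac7 against W10 (-0.58, limma adjusted p = 0.038). A filter at 100 RPM left no value for miR-144-5p and miR-486a-5p. The replicate numbers name different mice, and same-numbered mice did not deviate together (mean r of -0.045 over 33 pairs). With the replicate block, miR-144-3p in Inv3 against W10 turned to 0.0034, and the other 23 of 24 member comparisons kept their call.

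Requiring an absolute log2 change of 1 lowered the miRNAs passing by limma from 226 to 150 (P18 against W10), from 255 to 146 (Inv3 against Lac7), from 213 to 136 (Inv3 against W10) and from 155 to 77 (Inv3 against P18). Without the 2 farthest mice, r was 0.61 for miR-451a with miR-144-3p and 0.41 for muscle with miR-486a-5p, both weaker, and 0.65 for the arms of miR-144, stronger. Leaving out Lac7 mice 4 and 5, an alternative chosen after seeing the data as was the fit over the arms of all hairpins, weakened miR-486a-5p in Inv3 against Lac7 to 0.62.

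Leaving out each mouse in turn (504 values) ended no passing call. It let pass miR-451a in Lac7 against P18 (0.36 to 0.67, without P18 6), Lac7 against W10 (-0.73 to -0.39, without W10 3 or 5) and Inv3 against P18 (0.47 to 0.78, without P18 2, P18 6 or Inv3 2). It also let pass miR-144-5p in P18 against W10 (-0.68 to -0.41, without W10 3 or P18 6) and Lac7 against W10 (-0.60 to -0.35, without W10 3). The log2 ratio of miR-486a-5p to miR-451a then passed in P18 against W10 (-1.12 to -0.74, without P18 4) and Inv3 against Lac7 (0.57 to 0.90, without Lac7 1 or Inv3 1). Values that turned without having passed were miR-144-3p in Inv3 against W10 (-0.17 to 0.092), miR-144-5p in Lac7 against P18 (-0.022 to 0.21) and Inv3 against W10 (-0.25 to 0.047), miR-486a-5p in Lac7 against P18 (-0.0018 to 0.34), and the ratio of the miR-144 arms in Inv3 against W10 (-0.24 to 0.18). With 6 to 83 reads a library, counting error is largest for miR-486a-5p.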

Other observations

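The miRNAs whose levels were most like those of the other members were looked up after values were seen, and are given as a description over 24 libraries. For miR-486a-5p they were miR-338-3p (r = 0.84), miR-30d-5p (0.84), miR-362-5p (0.84) and miR-99a-5p (0.82), and for miR-144-5p they were miR-126b-3p (0.60) and miR-126b-5p (0.57). For miR-144-3p they were miR-101b-3p (r = 0.88), miR-141-3p (0.86) and miR-7a-5p (0.86). miR-141-3p, an epithelial miRNA of the miR-200 family, had 393 ± 88.8 RPM (W10), 1474 ± 301 (P18), 6411 ± 381 (Lac7) and 1158 ± 665 (Inv3), each ± SD of n = 6. After subtracting stage means, miR-29b-3p (0.84) and miR-30b-5p (0.82) led for miR-144-3p, miR-340-5p (0.74) and miR-375-3p (0.71) led for miR-144-5p, and the muscle miRNAs miR-133a-5p (0.59), miR-133b-3p (0.58), miR-1a-3p (0.55) and miR-133a-3p (0.53) led for miR-486a-5p.

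Base composition was set beside the changes, since both arms of miR-144 hold 30% G and C. Of the 544 tested miRNAs, 458 (84.2%) had a RefSeq sequence. From P18 to Lac7 the median log2 change was -0.25 in the 96 miRNAs with at most 40% G and C and -0.40 in the 362 others, and from Lac7 to Inv3 the medians were 0.17 and 0.35.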
